A study of Mus musculus with 6 samples.

Results

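The genes described here are transcriptional targets of p53, the transcription factor that is stabilised by DNA damage and other stress and that switches on genes for cell cycle arrest, repair, metabolic restraint and cell death. The group was defined by name as 10 genes, each read by the probeset with exactly 1 gene symbol and the highest mean level. Of these, 9 targets were analysed, out of 22180 genes with such a probeset: Mdm2, Cdkn1a, Ccng1, Sesn1, Phlda3, Zmat3, Trp53inp1, Plk2 and Btg2. Each of the 9 was read by a single probeset of that kind. Trp53, which encodes p53 itself, is not analysed here.

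Total brain RNA of mice aged 91 days was hybridised to Affymetrix Mouse Gene 2.0 ST arrays, 6 in all with 1 per sample. The control group (3 arrays, Thy1Cre-ERT2-EYFPHuRf/+) carried 1 floxed allele of Elavl1, the gene for the RNA-binding protein HuR, and the knockout group (3 arrays, Thy1Cre-ERT2-EYFPHuRf/f) carried floxed alleles on both chromosomes. Both groups shared the tamoxifen-dependent Cre recombinase and yellow fluorescent protein, driven by Thy1 in neurons, and both received tamoxifen at 10 and 11 weeks of age. The controls can therefore lose 1 allele in Cre-expressing neurons, and glia, vessels and Thy1-negative neurons keep the gene in both groups. In bulk tissue, fewer cells of a type and less RNA per cell cannot be told apart.

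In resting cells p53 is kept low by Mdm2, a ubiquitin ligase that marks it for degradation and is itself a p53 target, which closes a negative feedback loop. HuR binds AU-rich and U-rich stretches of messenger RNAs, and the transcripts of p53, Cdkn1a and Mdm2 are among those it has been reported to bind and stabilise in other cells. In neurons several p53 targets also answer to other signals: Btg2 and Plk2 are induced by synaptic activity, and Cdkn1a by steroid hormones and growth factors.

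The stretches upstream of the targets that hold a p53 motif or a cyclic AMP response element, the motif through which activity signals reach many neuronal genes, are printed here to show which motif each holds. RefSeq promoter windows of the GRCm38.p6 build (250 bases before to 50 after a start site) were found for 7 of the 9 genes, in 9 windows, since Cdkn1a and Sesn1 each had 2 start sites; Zmat3 and Trp53inp1 were not matched. Both strands were searched for the p53 half-site consensus of 10 letters and for the cyclic AMP response element, TGACGTCA. Each stretch below has 100 bases, 5′ to 3′ on the gene's strand, with p53 half-sites or TGACGTCA in capitals.
Cdkn1a, chr17:29090879-29090978, plus strand: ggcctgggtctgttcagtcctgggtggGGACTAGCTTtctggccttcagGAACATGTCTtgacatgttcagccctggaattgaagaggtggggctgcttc
Mdm2, chr10:117710859-117710958, minus strand: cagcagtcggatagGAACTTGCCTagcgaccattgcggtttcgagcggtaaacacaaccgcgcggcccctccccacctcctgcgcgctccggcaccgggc
Ccng1, chr11:40755387-40755486, minus strand: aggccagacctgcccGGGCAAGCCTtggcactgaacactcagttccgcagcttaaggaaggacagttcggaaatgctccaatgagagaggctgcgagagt
Sesn1, chr10:41887239-41887338, plus strand: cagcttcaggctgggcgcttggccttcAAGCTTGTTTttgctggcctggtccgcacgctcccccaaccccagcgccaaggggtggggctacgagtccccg
Btg2, chr1:134079256-134079355, minus strand: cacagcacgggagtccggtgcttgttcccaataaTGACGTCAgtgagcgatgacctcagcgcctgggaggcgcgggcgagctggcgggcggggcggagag
Plk2, chr13:110394944-110395043, plus strand: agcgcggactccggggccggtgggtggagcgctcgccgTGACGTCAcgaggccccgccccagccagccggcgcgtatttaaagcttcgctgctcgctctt

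At its upstream start site, Cdkn1a was the only one of the 7 genes with a pair of half-sites no more than 13 bases apart, a pattern held by 0.0731% of all 32851 windows; its other window held no half-site. A stricter form of the pair, with CATG at the centre of both half-sites, was found in none of the 9 windows. It was held by 0.00609% of all windows. Single half-sites were found in Mdm2, Ccng1 and the second window of Sesn1, against 8.36% of all windows. TGACGTCA was found in Btg2 and Plk2, against 1.79% of all windows. The shares over all windows are not matched for base composition. The bases before the start site were 73.2% G or C in Btg2 and 68.4% in Plk2, and 54.0% in the upstream window of Cdkn1a. The median over all windows was 52.4%. The search also covered the CArG box (1.63% of all windows) and TATAAA (13.6%), found in none of the 9, and CCAAT (37.4%), found in Btg2, Ccng1, Mdm2 and both windows of Sesn1. A match describes letters and not binding, and many p53 sites lie outside such windows.

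Levels are given as log2(intensity + 1) after quantile normalisation, and a difference or log2 fold change is knockout minus control unless stated. Control 3 and knockout 3 differed from the rest, with log2 levels of 7.69 and 7.68 for Xist, which acts in X inactivation, where the other 4 arrays had 2.52 to 2.79. Animals of both sexes are named in the labels, without a sex for any sample. Mean log2 levels of markers ran from 8.51 (Rbfox3) to 11.8 (Snap25) for neurons, from 7.03 (Aldh1l1) to 11.7 (Aldoc) for astrocytes and from 7.23 (Opalin) to 10.5 (Mobp) for oligodendrocytes, but reached down to 4.29 (Aif1) for microglia and 3.98 (Tek) for endothelial cells, while the liver gene Alb was at 3.60 in control and 3.30 in knockout, close to the brightness limit for testing of 3.28. The targeted gene Elavl1 had intensities of 310, 242 and 376 in the controls and 295, 289 and 315 in the knockouts, which overlap (log2 fold change -0.05 ± 0.15 SE). Elavl1 gives no check of the labels, since where its probeset lies relative to the floxed exons is not known here and most cell types keep the gene.

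No difference larger than the spread between replicates was detected between knockout and control brain in any of the 9 p53 targets. On the log2 scale 6 lay above 0 and 3 below, with values from -0.28 for Btg2 to 0.16 for Sesn1 and a median of 0.032, against 0.013 over the 16635 genes tested. Of all genes 54.8% lay above 0, or 68.6% when each array was centred on its median instead, where Trp53inp1 moved from -0.01 to 0.05 and no other target changed sign. With limma, 0 of the 9 passed a Benjamini-Hochberg adjusted p of 0.05 and 0 had an unadjusted p under 0.05, where 0% and 1.70% of all tested genes did (0.932% higher and 0.763% lower in knockout). With the replicate number as a block 0 of the 9 again had an unadjusted p under 0.05, against 4.85% of all genes (2.81% higher, 2.03% lower), and 0% of all genes passed after adjustment. In 0 of the 9 did the groups fail to overlap, against 5.70% of all genes (3.14% higher, 2.55% lower). Adjusted p values were 1.00 for each target without the block and 0.984 or above with it. Two-sided exact permutation tests over the 20 assignments gave p values from 0.4 for Mdm2 to 1 for Trp53inp1, where 3 against 3 arrays allow no p below 0.1.

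**Figure D1:**
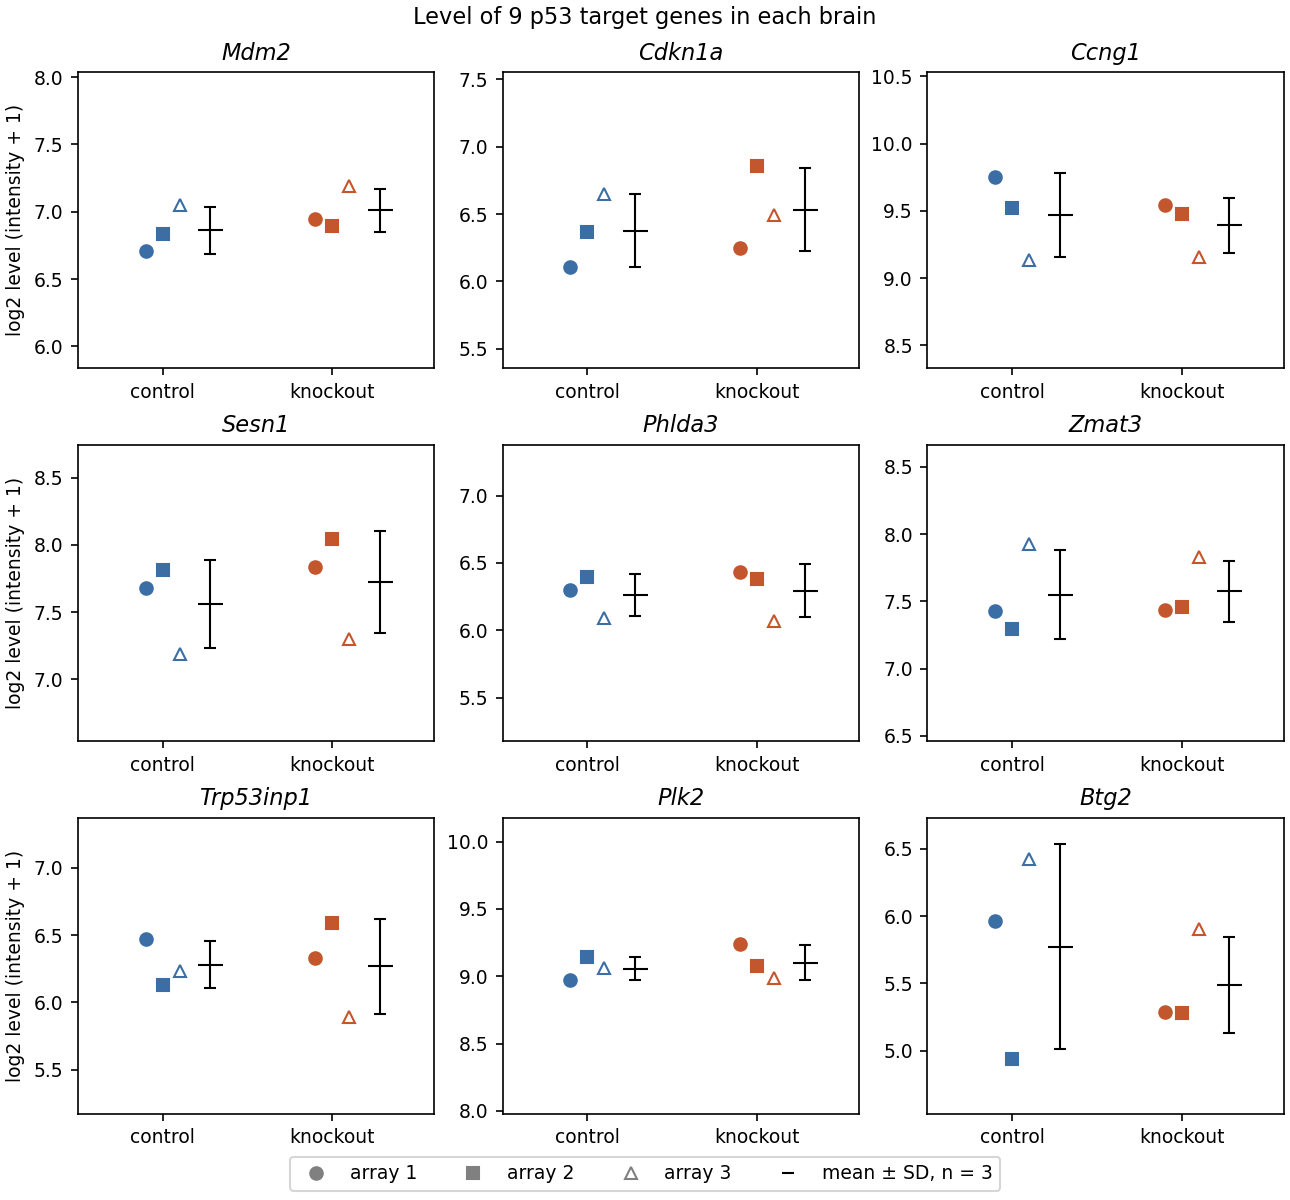
Log2 level (intensity + 1, quantile normalised) of each of the 9 p53 target genes on each array, with all panels spanning the same range of the log2 scale. Blue marks control and orange knockout, circles, squares and open triangles mark the arrays numbered 1, 2 and 3, and the bar beside each group gives mean ± SD (n = 3). The groups overlap in each panel, and the open triangles lie at one edge in Mdm2, Ccng1, Sesn1, Phlda3 and Zmat3.

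Mdm2, the ubiquitin ligase that limits p53, had log2 levels of 6.71, 6.83 and 7.05 in the controls numbered 1, 2 and 3 and of 6.94, 6.89 and 7.19 in the knockouts. Each knockout lay above the control of the same number, while control 3 lay above knockouts 1 and 2, so the groups overlapped. The means were 6.86 ± 0.175 and 7.01 ± 0.159 (SD, n = 3 each), a difference of 0.15 with a standard error of 0.14 (limma, unadjusted p = 0.319, adjusted p = 1.00). The 95% confidence interval ran from 0.887-fold to 1.38-fold. Mdm2 was higher in knockout than in the same-numbered control by 0.24, 0.06 and 0.14. Its value stayed above 0 in each of the 17 alternatives tried, which reuse the same arrays. Sesn1, described below, was the other target that lay above its same-numbered control in all 3 cases, and a higher knockout in all 3 was found for 14.2% of all genes. No target was lower in all 3, against 10.7% of all genes, so 2 of 9 had a common direction against 24.9%.

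Cdkn1a encodes p21, which arrests the cell cycle by inhibiting cyclin-dependent kinases and is the classical readout of p53 activity. Its log2 levels were 6.11, 6.37 and 6.65 in the controls and 6.24, 6.85 and 6.50 in the knockouts. Knockout 2 was the highest of the 6 arrays and control 1 the lowest, with the other 4 interleaved. The difference of 0.16 had a standard error of 0.20 (limma, unadjusted p = 0.450, adjusted p = 1.00), with an interval from 0.812-fold to 1.53-fold. It came to -0.005 without knockout 2, to 0.024 without control 1 and to 0.311 without both arrays numbered 3. Its difference was smaller than the SD of either group (0.270 in control and 0.307 in knockout, n = 3 each).

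Ccng1 encodes cyclin G1, a p53 target that brings a phosphatase to Mdm2. It had log2 levels of 9.75, 9.52 and 9.13 in the controls and 9.54, 9.47 and 9.16 in the knockouts. The arrays numbered 3 were the lowest in both groups. Knockout minus control was -0.08 with a standard error of 0.18 (0.705-fold to 1.28-fold).

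Sesn1 encodes a sestrin, which restrains the growth kinase complex mTORC1 under stress. Its log2 levels were 7.68, 7.81 and 7.19 in the controls and 7.83, 8.04 and 7.30 in the knockouts. The 2 arrays numbered 3 were again lowest, and each knockout exceeded its same-numbered control, by 0.15, 0.23 and 0.11. The difference of 0.16 had a standard error of 0.23 (limma, unadjusted p = 0.5; 0.1 with the replicate block, adjusted 0.984). Its 95% interval was 0.771-fold to 1.63-fold without the block and 0.971-fold to 1.29-fold with it, and the value was -0.021 without control 3.

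Phlda3, a pleckstrin homology protein that keeps the survival kinase Akt off the membrane, had log2 levels of 6.30, 6.39 and 6.09 in control and 6.43, 6.38 and 6.07 in knockout brain. The groups overlapped almost wholly, with a difference of 0.03 ± 0.14 (SE) and an interval from 0.813-fold to 1.29-fold. Trp53inp1, a stress-induced protein that acts with p53 and in autophagy, ranged from 6.13 to 6.47 in control and from 5.89 to 6.59 in knockout brain. Its difference was -0.01 ± 0.19 (SE), with -0.14, 0.45 and -0.34 for the numbers 1, 2 and 3, so the same-numbered arrays pointed different ways.

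Zmat3, a zinc finger protein that binds RNA and acts in splicing and in transcript stability, had log2 levels of 7.43, 7.30 and 7.93 in the controls and 7.43, 7.46 and 7.83 in the knockouts. The arrays numbered 3 were the highest in both groups, and knockout minus control was 0.02 ± 0.19 (SE; 0.743-fold to 1.39-fold). A second probeset, which the annotation assigns to Zmat3 and to 4930429B21Rik together, had a value of -0.11 and was likewise higher on the arrays numbered 3, by a mean of 0.27.

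Plk2 and Btg2, the pair with a cyclic AMP response element in their upstream stretches, lay at opposite ends of the group in how much they varied. Plk2, a Polo-like kinase that weakens synapses after prolonged activity, had log2 levels of 8.97, 9.14 and 9.06 in the controls and 9.24, 9.08 and 8.98 in the knockouts. Its whole range of 0.27 was the narrowest of the 9, and its interval of 0.856-fold to 1.24-fold was the tightest (difference 0.04 ± 0.11 SE).

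Btg2, an antiproliferative protein that recruits the deadenylase complex CCR4-NOT, had log2 levels of 5.96, 4.94 and 6.42 in the controls and 5.29, 5.28 and 5.90 in the knockouts. Its range of 1.48 was the widest of the 9, with control 2 lowest, control 3 highest and all knockouts between them. The SD was 0.759 in control and 0.357 in knockout brain (n = 3 each). The difference of -0.28 had a standard error of 0.37 (limma, unadjusted p = 0.463, adjusted p = 1.00), and its interval ran from 0.455-fold to 1.48-fold. Without control 2 the value was -0.700, the 1 case among the 9 targets and the 17 alternatives with an unadjusted p under 0.05 (limma, 0.0272; adjusted p = 1.00), and without control 3 it was 0.041.

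**Figure D2:**
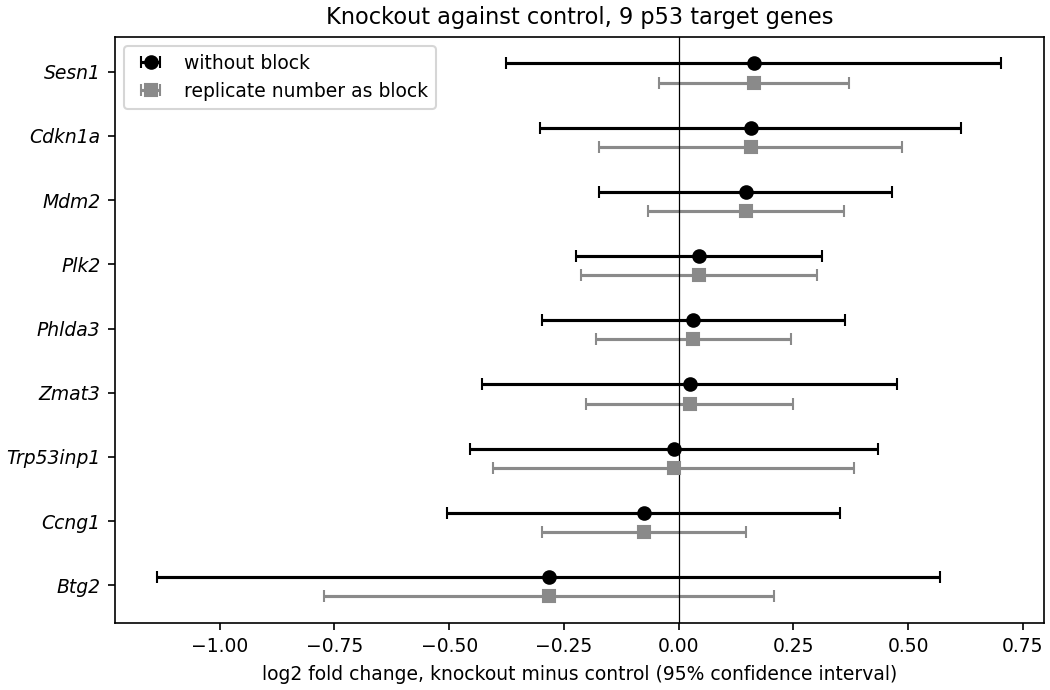
Log2 fold change of knockout over control for the 9 p53 target genes, ordered by value; horizontal bars are 95% confidence intervals, without (black circles) and with (grey squares) the replicate number as a block. Each interval includes 0, from the narrow interval of Plk2 to that of Btg2, which reaches from 0.455-fold to 1.48-fold without the block.

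The intervals bound what these arrays could show with each fit. Apart from Btg2, Cdkn1a and Sesn1, each interval without the block lay between 0.705-fold and 1.39-fold. Over all 9 targets no upper bound without the block exceeded the 1.63-fold of Sesn1, and no lower bound was under the 0.455-fold of Btg2. With the replicate number as a block each interval was narrower. They then lay between the 0.585-fold of Btg2 and the 1.40-fold of Cdkn1a.

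Several targets varied with the number of the array. Both arrays numbered 3 lay on one side of the other 4 in 5 of the 9 targets, above them in Mdm2 and Zmat3 and below them in Ccng1, Sesn1 and Phlda3. The same held for 44.0% of all tested genes (23.4% above and 20.6% below), a share close to background that is not particular to the targets. Array 3 differed from the mean of arrays 1 and 2 by -0.55 in control and -0.63 in knockout for Sesn1, by -0.50 and -0.35 for Ccng1, and by 0.57 and 0.39 for Zmat3. For Btg2 the values were 0.97 and 0.62, but control 1 lay above knockout 3. Cdkn1a, at 0.41 and -0.05, differed in sign between the groups, and Trp53inp1, at -0.07 and -0.57, lay below 0 in both by unequal amounts. These are descriptions of arrays that the labels do not set apart, with no test.

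**Figure D3:**
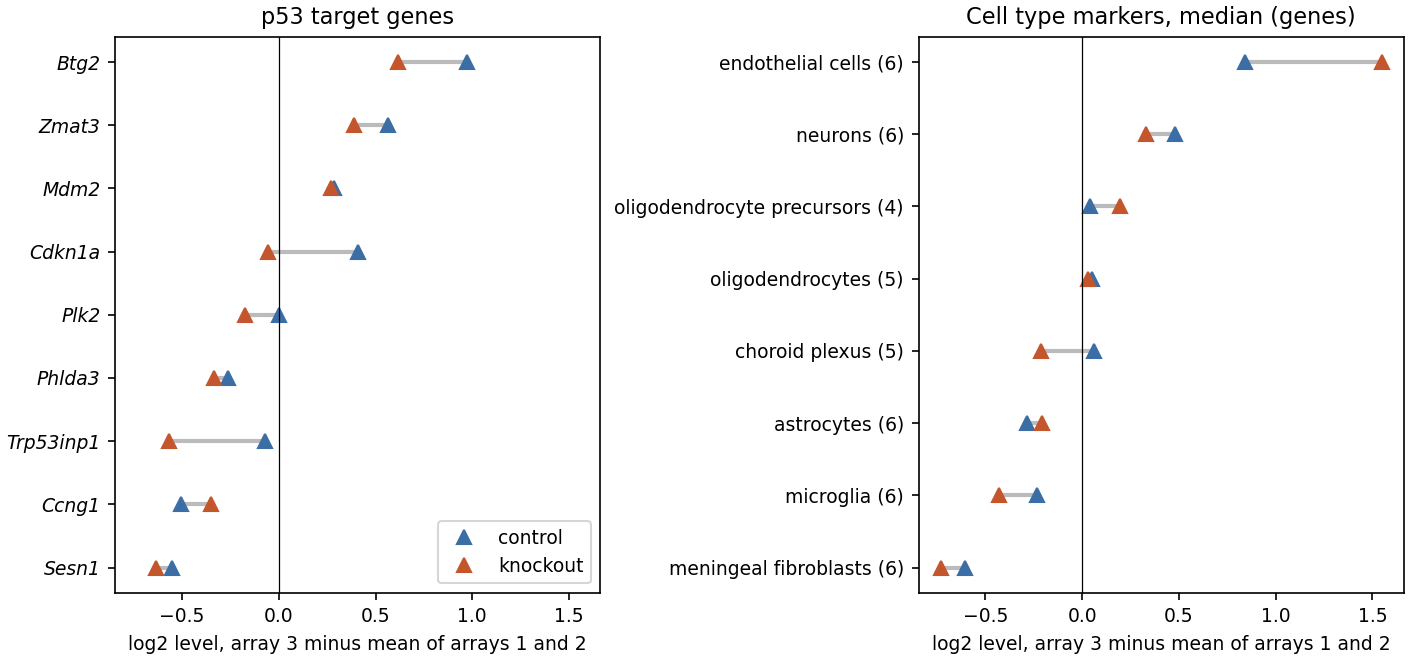
Log2 level of the array numbered 3 minus the mean of arrays 1 and 2, in control (blue) and knockout (orange), for the 9 p53 targets (left) and as the median over the markers of each brain cell type (right, number of markers in brackets). Sesn1, Ccng1, Phlda3 and Trp53inp1 lie below 0 and Mdm2, Zmat3 and Btg2 above 0 in both groups, and among the cell type medians that of endothelial markers lies furthest above 0.

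Markers of several cell types moved with the same arrays. All 6 endothelial markers were higher on both arrays numbered 3 than on the other 4, with medians of 0.84 in control and 1.55 in knockout for array 3 minus the others. Their summed intensity ran from 208 to 437 over the controls and from 178 to 474 over the knockouts. Of 6 meningeal fibroblast markers 5 were lower on both arrays numbered 3 (medians -0.60 and -0.73; summed intensity 335 to 719 in control and 379 to 647 in knockout), as were 5 of 6 microglial markers (-0.23 and -0.43; 638 to 856 and 604 to 871). Of 6 neuronal markers 5 were higher (0.48 and 0.33, 9702 to 14049 and 10068 to 13791). Of 6 astrocyte markers 4 were lower (-0.28 and -0.21, 5452 to 5974 and 5502 to 6442). Both arrays lay on one side of the other 4 for 1 of 5 choroid plexus, 2 of 4 oligodendrocyte precursor and 0 of 5 oligodendrocyte markers. Of all tested genes, 23.4% were higher and 20.6% lower on both arrays numbered 3. The dimmest of these markers, Lum of fibroblasts, had a mean log2 level of 3.84. Between the genotypes, all 5 measured oligodendrocyte markers lay below 0 (median -0.20), 4 of them without overlap of the groups (5.70% of all genes), with a summed intensity of 3266 to 3769 in control and 3167 to 3322 in knockout; 0 of the 5 passed after adjustment with limma, and 1, Opalin, had an unadjusted p under 0.05 (1.70% of all genes). All 4 markers of oligodendrocyte precursors also lay below 0 (median -0.07), and all 6 of neurons (0.03), all 6 of astrocytes (0.08) and all 5 of choroid plexus (0.04) lay above 0, each without a gene whose groups did not overlap. Of all tested genes 54.8% lay above 0. Other types were mixed. Of microglial markers 4 of 6 lay above 0 (median 0.03), and of endothelial markers 3 of 6 (-0.04). Of meningeal fibroblast markers 4 of 6 lay above 0 (0.15), and the groups did not overlap for 1, Col3a1 (5.70% of all genes). The part of these shifts in the values of the 9 targets was not tested.

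Btg2 and Sesn1, the targets with the widest ranges, were compared with each other tested gene by the root-mean-square difference of log2 levels after each gene's mean over the 6 arrays was subtracted. The genes closest to Btg2 were Ier2, a growth factor and activity-induced immediate early gene (0.138), the microRNA gene Mir666 (0.151) and Dab2ip, a Ras GTPase-activating protein (0.180). Ier2 shared the order of the controls, with 4.84, 4.07 and 5.31, and had 4.38, 4.11 and 4.65 in the knockouts. Closest to Sesn1 were Sowahc (0.038), Gnpnat1, an enzyme of amino sugar synthesis (0.043), and the neuropeptide gene Grp (0.054). The distances are over 6 arrays, 2 of which stand apart, and describe these arrays alone.

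**Figure D4:**
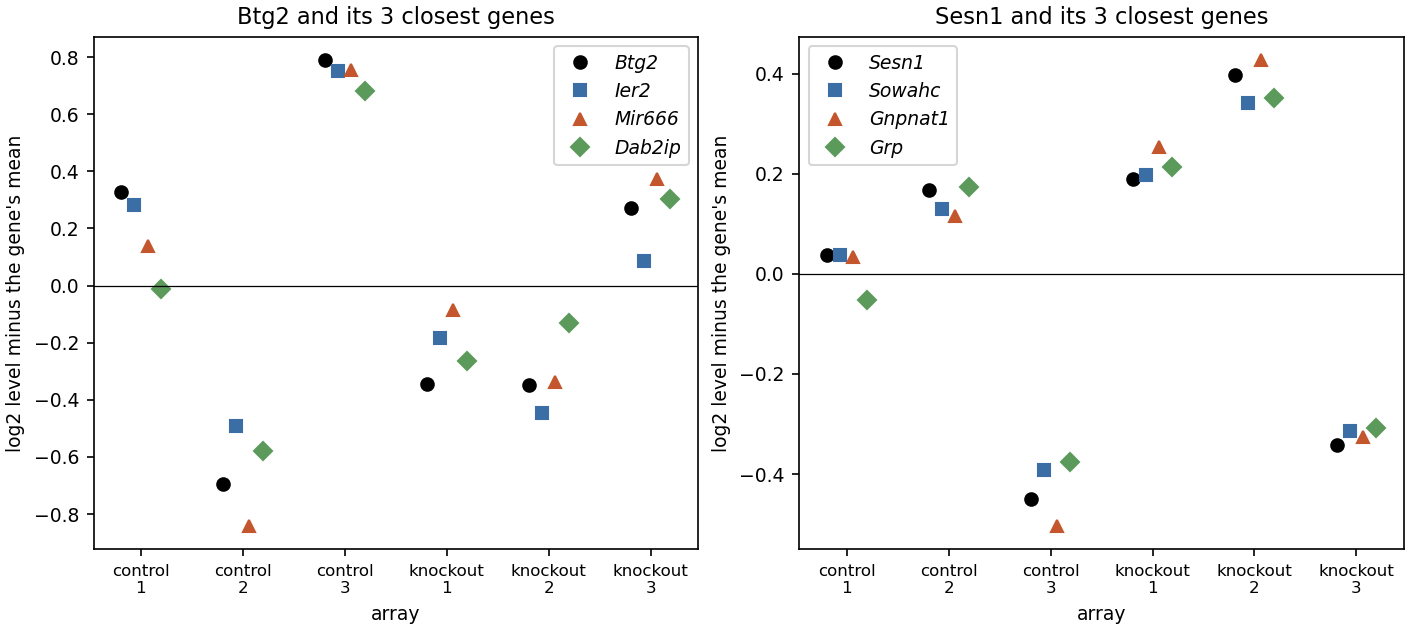
Log2 level minus each gene's own mean on the 6 arrays for Btg2 (left) and Sesn1 (right) with the 3 tested genes closest to each. Btg2 and its neighbours are highest on control 3 and low on control 2, and Sesn1 and its neighbours are lowest on the arrays numbered 3.

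Among 20 neuronal immediate early genes, the class to which Btg2 is often assigned, 9 lay above 0 and 11 below, at a median of -0.021, and 0 passed after adjustment (limma). At an unadjusted p under 0.05 there was 1 of 20 (Junb), against 1.70% of all genes, and with the replicate block 3 of 20 (Junb, Ier2 and Nptx2), against 4.85%, none of them past the adjusted threshold. Fos was at -0.16 ± 0.28, Egr1 at -0.03 ± 0.26, Arc at 0.04 ± 0.22 and Junb at -0.30 ± 0.13 (SE). Junb, a subunit of the AP-1 transcription factor, had the smallest p of the list (unadjusted p = 0.0462, adjusted p = 1.00), and its groups did not overlap, as for 2 of 20 in this list (Junb and Bdnf) against 5.70% of all genes. The list median for array 3 minus the others was 0.46 in control and -0.18 in knockout. Genes of the list differed in this. Fos was at 0.88 and 0.52, above 0 in both groups like Btg2 at 0.97 and 0.62, while Arc was at 0.42 and -0.60. Ier2, at 0.86 and 0.40, was picked above as the gene closest to Btg2 on these arrays, so its likeness here adds nothing.

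Other p53 targets that were tested, for cell death, repair and metabolism, were centred near 0. Of 30 listed, 25 were measured and 23 tested. Bax, Gdf15, Ddb2, Gadd45a and Fdxr were not analysed, and Eda2r and Ckap2 were too dim to be tested. Of 23 tested, 12 lay above 0 and 11 below, at a median of 0.002, with 0 past the adjusted threshold and 0 at an unadjusted p under 0.05 (limma; 0 of 23 also with the replicate block). Bbc3, which encodes the death activator Puma, was at 0.13 ± 0.10 (SE) and was the 1 of 23 whose groups did not overlap (5.70% of all genes), at 4.652, 4.707 and 4.529 in control against 4.799, 4.720 and 4.748 in knockout. The others named by rule were Ei24, an endoplasmic reticulum protein of autophagy (0.08 ± 0.13), Pmaip1, which encodes the death activator Noxa (-0.05 ± 0.11), and the death receptor gene Fas (-0.0005 ± 0.11). Values over the list ran from -0.20 for Tap1 to 0.17 for Pmm1.

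Regulators of p53 were likewise centred near 0, with 15 of 26 above 0, a median of 0.015 and 0 at an unadjusted p under 0.05 with limma, with or without the block. Mdm4, the partner of Mdm2 that masks the p53 activation domain, was at 0.01 ± 0.13 (SE), the DNA damage kinase gene Atm at -0.07 ± 0.10, the deubiquitinase gene Usp7 at -0.02 ± 0.10 and the kinase gene Hipk2 at 0.03 ± 0.10. Groups did not overlap for Cdkn2a, at -0.24, and Trim24, at -0.09, which are 2 of 26, where 5.70% of all genes did not overlap. The p53 relatives Trp63 and Trp73, both dim here, were at 0.21 ± 0.13 and -0.04 ± 0.21.

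Relatives of the targets were examined by class. Of the 8 tested paralogs, 4 lay above 0 (median -0.041, 0 at an unadjusted p under 0.05). Among them Ccng2 was at 0.01, Sesn3 at 0.10, Sesn2 at -0.12 and Trp53inp2 at -0.10, with standard errors of 0.15, 0.10, 0.14 and 0.19. The groups did not overlap for 1 of the 8 paralogs, Zmat1, at -0.17, against 5.70% of all genes. Of 7 other Polo-like kinases and BTG/TOB proteins 5 lay above 0 (median 0.073), with Plk1 at -0.01, Plk3 at -0.08, Btg1 at 0.08 and Tob1 at 0.01.

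Cdkn2c, an inhibitor of the cyclin D kinases, had the largest value among the cyclin-dependent kinase inhibitors other than Cdkn1a, of which 2 of 6 lay above 0 (median -0.072). Its log2 levels were 4.16, 3.71 and 3.72 in the controls and 4.72, 4.36 and 4.14 in the knockouts. Control 1 lay just above knockout 3, so the groups overlapped. The difference of 0.54 ± 0.19 (SE) had a limma unadjusted p of 0.0234 and an adjusted p of 1.00, and 0.00101 and 0.984 with the replicate block, so it was not called. The related Cdkn1b, Cdkn1c and Cdkn2d were at -0.03 ± 0.10, -0.16 ± 0.19 and -0.11 ± 0.11. The groups did not overlap for 1 of the 6 inhibitors, Cdkn2a, given above among the regulators (5.70% of all genes).

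Cell cycle genes that p53 represses in dividing cells were dim in adult brain. Of 14 tested, 5 lay above 0, at a median of -0.017, and 0 passed after adjustment. Mki67 was at -0.04 ± 0.13 and Cdk1 at -0.01 ± 0.13 (SE). The B-type cyclin gene Ccnb2 had 4.32, 4.52 and 4.41 in control against 4.70, 4.66 and 4.98 in knockout brain, without overlap, as the 1 of 14 (5.70% of all genes). Its difference of 0.36 ± 0.13 had a limma unadjusted p of 0.0225 and an adjusted p of 1.00, and it lay in the opposite direction to the list median.

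**Figure D5:**
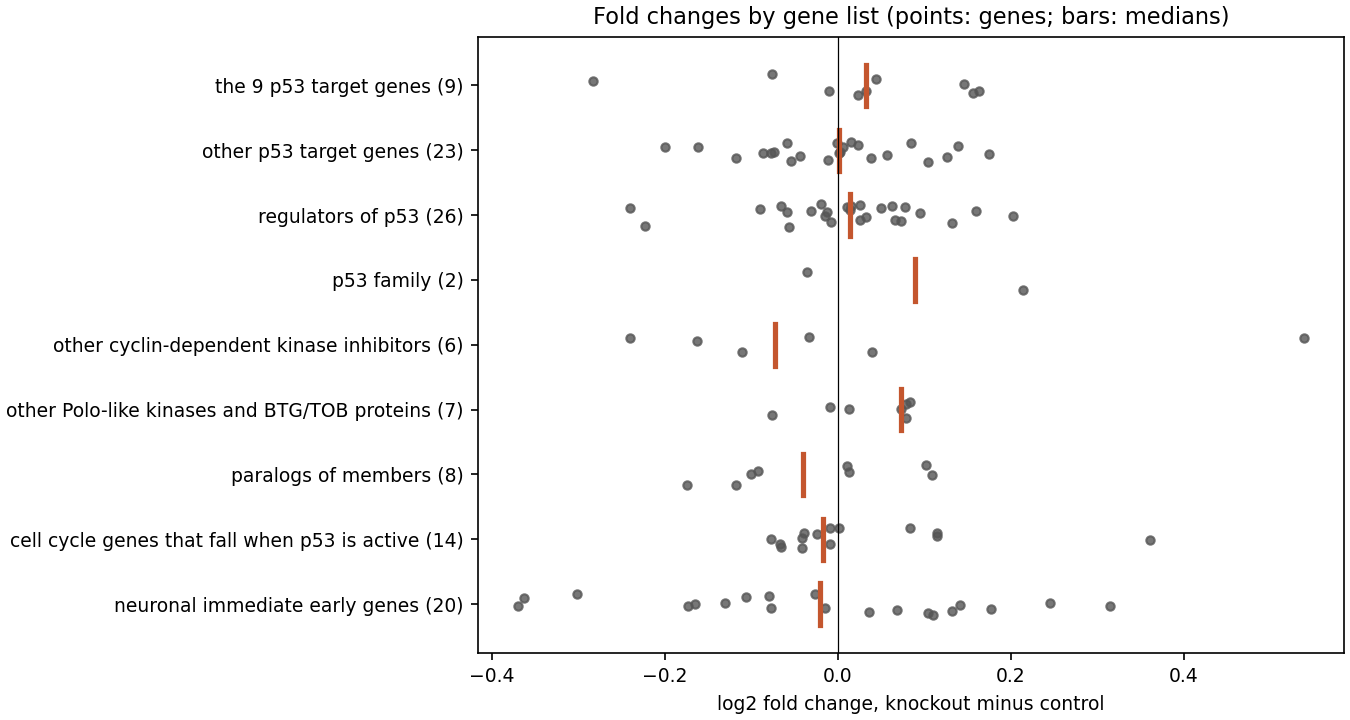
Log2 fold change of knockout over control for each tested gene (points, spread vertically for visibility) in the 9 p53 targets and in 8 lists of related genes, with the number of genes in brackets and the list median as an orange bar. Medians lie between -0.072 and 0.089, and Cdkn2c at 0.54 and Ccnb2 at 0.36 are the furthest above 0.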

How the data were processed

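Linear intensity values of 41340 probesets, as deposited, were made with MAS5, per the submitters' processing notes, which give no version. How the authors scaled them is not known here. Array medians ran from 13.4 to 14.6. Values were transformed as log2(intensity + 1) and quantile normalised, since array medians differed by 0.119, over the limit of 0.1. Of 22180 genes with 1 symbol, the dimmest 5545 (25th percentile) were not tested; all 9 targets passed. A fold change is on the log2(intensity + 1) scale. Groups were compared with limma 3.58.1 in R 4.3.3 (two-sided, Benjamini-Hochberg over 16635 genes). The fit was also run on simulated data as a check of the code, and its power to call small changes is not reported here. Labels name no separate animals. In both groups Xist was far higher on the array numbered 3, so the arrays of a group are not all repeats of 1 animal. Whether those numbered 1 and 2 came from separate animals is not given. Each p value therefore reflects only how these samples vary, which may in part be technical.

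Replicate numbers were taken to pair the arrays. Deviations from group means correlated at 0.31, 0.37 and 0.75 for the same numbers (limit 0.1). The crossed pairs of numbers 1 and 2 gave 0.40 (control 1, knockout 2) and 0.37. Because both arrays numbered 3 stand apart, numbers 1 and 2 would pass this limit in either order, so the check does not tell them apart. Their pairing rests on the numbering alone. The members and the 8 lists were chosen with earlier results of these data known. Named were all targets, the first 4 tested genes of each list, and the 3 genes closest in pattern to the 2 most variable targets. Cdkn2a, Trim24, Tap1, Pmm1, Nptx2, Bdnf, Zmat1 and the named cell type markers were singled out after their values were seen. The table has 0 unused columns. Plots used matplotlib 3.10.9.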

Additional observations from a re-analysis of the deposited data

How the results depend on the processing

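With limma, 0 genes passed the adjusted threshold in any of the 17 alternatives, and no target did. Genes at an unadjusted p under 0.05 numbered 282 as reported, 465 with no filter on dim genes, 88 with the filter at the 50th percentile, 806 with the replicate block, 766 with Xist as a covariate, 755 with array weights and 854 once both arrays numbered 3 were left out. They ranged from 163 (without knockout 2) to 574 (without control 3) when 1 array was left out. Genes whose groups do not overlap numbered 948 as reported, 1506 with no filter, 455 with the 50th percentile, 5775 without both arrays numbered 3, and 1834 to 3522 with 1 array left out; fewer arrays make separation easier by construction. The replicate block changed no call of a target. Targets at an unadjusted p under 0.05 numbered 0 in each alternative but 1, without control 2 (1 target, Btg2), so 0 to 1 over the left-out arrays, and the median over targets ranged from -0.027 to 0.102. The p53 family had no tested member with the filter at the 50th percentile. Some list medians also moved. Median centring took regulators of p53 from 0.015 to 0.064, paralogs from -0.041 to 0.029 and immediate early genes from -0.021 to 0.019. It took the median over all genes from 0.013 to 0.055. The 50th percentile filter took the cell cycle list from -0.017 to 0.115, which is the value of E2f1.

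Of the targets, Mdm2 alone kept its sign in each alternative (0.056 to 0.240). Several named genes outside the targets also did, among them Atm, Junb, Sesn2 and Sesn3. The alternatives reuse the same arrays, and the share of all genes that kept their sign was not computed. Trp53inp1 changed sign to 0.018 as deposited, 0.054 with arrays centred on their medians, 0.101 with array weights and 0.155 without the pair numbered 3; Elavl1 to 0.014 median-centred, 0.025 with weights and 0.058 without both. Median centring also turned Usp7 (0.030), Cdkn1b (0.034) and Egr1 (0.034), and the Xist covariate Fas (0.00058). Array weights turned Trp73 (0.018), Btg1 (-0.013), Tob1 (-0.0036), Mki67 (0.058), Cdk1 (0.022) and Egr1 (0.134). Leaving out both arrays numbered 3 turned Plk3 (0.010), Btg1 (-0.026), Tob1 (-0.017), Mki67 (0.090), Cdk1 (0.091) and Egr1 (0.215). With 1 array left out, values that changed sign ranged as follows for targets: Btg2 -0.700 to 0.041, Ccng1 -0.244 to 0.065, Cdkn1a -0.0051 to 0.300, Phlda3 -0.055 to 0.144, Plk2 -0.027 to 0.102, Sesn1 -0.021 to 0.375, Trp53inp1 -0.170 to 0.179 and Zmat3 -0.106 to 0.212. For other genes they were Arc -0.167 to 0.237, Btg1 -0.162 to 0.236, Ccng2 -0.127 to 0.118, Cdk1 -0.106 to 0.057, Cdkn1b -0.063 to 0.0044, Cdkn1c -0.317 to 0.028, Egr1 -0.196 to 0.243, Ei24 -0.011 to 0.161, Elavl1 -0.180 to 0.080, Fas -0.068 to 0.078, Fos -0.409 to 0.127, Hipk2 -0.013 to 0.075, Mdm4 -0.055 to 0.122, Mki67 -0.115 to 0.053, Plk1 -0.088 to 0.046, Plk3 -0.191 to 0.028, Pmaip1 -0.104 to 0.018, Tob1 -0.170 to 0.166, Trp53inp2 -0.236 to 0.084, Trp73 -0.170 to 0.188 and Usp7 -0.033 to 0.0052. The cause of these changes was not tested. The number of arrays limits the precision: the median 95% interval over all genes reached 0.33 on the log2 scale to either side, or 0.24 with the block.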
